A study of Mus musculus with 7 samples.

Results

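Imprinted genes of fetal growth were followed across mouse liver cells on 7 short-oligonucleotide arrays. The set consisted of 8 genes, H19, Igf2, Dlk1, Peg3, Mest, Plagl1, Grb10 and Cdkn1c, and a gene was read from every probe set annotated to its symbol alone. Of these 8 genes, 7 could be read, through 13 probe sets, out of 12393 genes on the arrays. H19 was the exception. Its only probe set was annotated to 2 genes, H19 and the microRNA gene Mir675 that lies within it, so no value was taken for H19.

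The groups were the layer of feeder cells derived from fetal liver (1 array), unsorted liver endothelial progenitors (1 array), and the progenitors positive (Sca1+, 2 arrays) or negative (Sca1-, 3 arrays) for the surface antigen Sca1. The sources used here give neither strain nor gestational age for any group, name no gene manipulation or drug, and do not say whether replicates came from separate cultures or animals. The p-values below therefore rest on a spread between samples that may be technical. The titles of 3 sorted arrays carry the word sample with the number 2 or 3 (Sca1+ replicate 2 and Sca1- replicates 2 and 3) and are called the later arrays. The 2 sorted arrays without a number (replicate 1 of each fraction) are called the first arrays. How they differed in the laboratory was not given. Among the array titles, only that of the feeder names fetal liver, and that of Sca1- replicate 1 lacks the word progenitor.

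An imprinted gene is transcribed mainly from the copy inherited from the mother or mainly from the copy inherited from the father. Many such genes act on growth before birth: Igf2, Dlk1, Peg3, Mest and Plagl1 are expressed from the paternal copy, whereas H19, Cdkn1c and, outside the brain, Grb10 are expressed from the maternal copy. In the fetal liver Igf2 is a growth factor made in abundance, and Dlk1 is used as a surface marker of hepatoblasts, the common precursors of hepatocytes and bile duct cells. The arrays cannot separate the parental copies, so every value below is the summed transcript of both.

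The 8 genes lie on 5 chromosomes of the mouse genome (GRCm38.p6, RefSeq). Chromosome 7 holds Peg3 (chr7:6703892-6730462) and a cluster of H19 (chr7:142575530-142578146), Igf2 (chr7:142650768-142666816) and Cdkn1c (chr7:143458339-143461059). Mest lies at chr6:30733506-30748466, Plagl1 at chr10:13090832-13131694, Grb10 at chr11:11930499-12037428 and Dlk1 at chr12:109452485-109463336. H19 is annotated as a long non-coding RNA and the other 7 as protein coding.

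Mir675, which shares the probe set with H19, is shown because it is why H19 has no value of its own. Both mature products are 22 bases long and lie on the minus strand of chromosome 7, the 3p product at chr7:142577078-142577099 and the 5p product at chr7:142577112-142577133, inside the H19 gene. They are shown from RefSeq 5′ to 3′ with the seed, bases 2 to 8, in capitals.
mmu-miR-675-3p: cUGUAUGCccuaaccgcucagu
mmu-miR-675-5p: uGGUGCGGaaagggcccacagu
The seeds of the 2 products differ.

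Start-site sequences are shown for 4 of the genes that differed together between later and first sorted arrays, because Plagl1 encodes a zinc finger transcription factor whose binding element has the palindrome GGGGCCCC at its core, which can be looked for at the starts of Peg3, Grb10, Dlk1 and Plagl1 itself. Each window runs from 250 bases before to 50 bases after an annotated start (RefSeq, GRCm38.p6), 5′ to 3′ on the gene's own strand. Capitals mark GGGGCCCC and the GC box GGGCGG on either strand, where it reads CCGCCC on the other strand, with overlapping matches counted.
Peg3, chr7:6730370-6730669, minus strand: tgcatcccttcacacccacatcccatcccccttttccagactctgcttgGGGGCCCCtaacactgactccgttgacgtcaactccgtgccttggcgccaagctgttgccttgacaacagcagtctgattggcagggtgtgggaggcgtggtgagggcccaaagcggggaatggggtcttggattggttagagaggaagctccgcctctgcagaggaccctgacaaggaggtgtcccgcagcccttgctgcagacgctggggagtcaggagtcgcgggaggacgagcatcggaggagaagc
Plagl1, chr10:13090582-13090881, plus strand: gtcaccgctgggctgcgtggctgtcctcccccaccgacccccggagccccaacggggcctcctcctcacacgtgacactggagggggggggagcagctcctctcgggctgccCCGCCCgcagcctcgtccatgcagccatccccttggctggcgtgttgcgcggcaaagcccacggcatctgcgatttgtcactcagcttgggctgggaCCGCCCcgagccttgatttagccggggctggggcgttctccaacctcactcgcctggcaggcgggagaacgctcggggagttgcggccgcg
Grb10, chr11:12037371-12037670, minus strand: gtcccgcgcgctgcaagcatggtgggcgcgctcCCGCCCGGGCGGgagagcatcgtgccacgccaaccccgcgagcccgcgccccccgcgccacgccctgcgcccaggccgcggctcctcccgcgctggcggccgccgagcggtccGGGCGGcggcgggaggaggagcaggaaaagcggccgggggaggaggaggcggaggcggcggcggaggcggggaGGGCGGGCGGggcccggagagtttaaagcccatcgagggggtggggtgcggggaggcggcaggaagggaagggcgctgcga
Dlk1, chr12:109452573-109452872, plus strand: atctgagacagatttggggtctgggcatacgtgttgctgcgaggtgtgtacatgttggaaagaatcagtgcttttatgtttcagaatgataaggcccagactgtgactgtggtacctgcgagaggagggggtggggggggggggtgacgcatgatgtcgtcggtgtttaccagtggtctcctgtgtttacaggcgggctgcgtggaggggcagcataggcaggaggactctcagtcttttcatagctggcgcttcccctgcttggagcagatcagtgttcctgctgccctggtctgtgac

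The Peg3 window held 1 copy of GGGGCCCC, beginning 201 bases before the start, and the Plagl1, Grb10 and Dlk1 windows held 0. The windows not shown, those of Igf2 and Mest and another of Grb10, also held 0 copies of GGGGCCCC. Over all 32851 windows of the same length, 1.08% held it. The GC box occurred 5 times in the Grb10 window shown and 2 times in the Plagl1 window, and 0 times in the Peg3 and Dlk1 windows, against 35.7% of all windows with at least 1. The Grb10 window shown had 45 CpG dinucleotides, more than 98.1% of all windows, and the Plagl1 window had 26, against a median of 7 over all windows. A second Grb10 start, with its window at chr11:12027922-12028221, had 9 CpG and 0 GC boxes, and the arrays do not tell which start was used. The Peg3 window had 13 CpG and the Dlk1 window had 9. Windows were found for 6 of the 8 genes, 12 in all since Igf2, Mest and Grb10 have several starts, and 7 of the 12, in 4 genes, held a GC box. H19 and Cdkn1c had no entry. A match describes letters in a window and is no evidence of binding.

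The deposited values were signal intensities. All arrays were brought to a common trimmed mean of 500, a floor of 64 was applied for logarithms, and the brightest probe set stood for a gene. A signal above 100 was taken as the level from which a gene entered a test, and the brightest of 27 bacterial control probe sets on an array as its background mark, which lay between 50.8 and 170. Igf2, Plagl1 and Grb10 were above that mark on all 7 arrays, Dlk1, Peg3 and Mest on 6, and Cdkn1c on 2, the feeder and the unsorted array. On Sca1- replicate 1, the array where Dlk1, Peg3 and Mest were below the mark, it stood at 170.

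Actb is read at both ends of its transcript, and its 3′ signal divided by its 5′ signal is high where transcripts are truncated. This ratio was 1.03 on the feeder and 1.01 on the unsorted array, between 1.87 and 2.37 on the later arrays, and 6.83 and 13.5 on the first arrays. Markers of mesenchymal cells, 22 measured of 23 listed, exceeded 100 in 19 to 20 cases on the later arrays and in 10 on both first arrays. Granulocyte markers, 12 measured of 13, had a summed signal between 9842 and 227329 on the later arrays and of 145520 and 615944 on the first arrays. Endothelial markers, the labelled cell type of the sorted and unsorted cells, exceeded 100 in 5 to 16 of 20 cases. Above the background mark of each array they numbered 4 to 13, with 4 on Sca1- replicate 1 and 11 on the unsorted array. Among the endothelial markers Pecam1, the antigen CD31, was above 100 on 4 of the 7 arrays and above the mark on 3. It reached at most 206. The list was uneven: Stab1 lay between 579 and 2255 and Eng between 184 and 749, while Tie1 and Erg reached at most 36.6 and 40.8. Macrophage markers (16 measured of 17) exceeded 100 in 13 to 15 cases on every array.

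Igf2 and Dlk1, the secreted and membrane-bound ligands of the set, were brightest on the feeder and unsorted arrays and lowest on Sca1+ replicate 1. Igf2, the growth factor that signals through the type 1 IGF receptor, had a scaled signal of 3651 on the feeder array, 3524 on the unsorted array, 2181 and 84.6 on Sca1+ replicates 2 and 1, and 1176, 869 and 362 on Sca1- replicates 3, 2 and 1. The feeder and unsorted arrays were thus close to each other, and the Sca1+ pair enclosed all Sca1- values. Dlk1, a transmembrane protein of the Notch ligand family, had 1728 on the feeder array, 2510 on the unsorted array, 850 and 59.0 on Sca1+ replicates 2 and 1, and 352, 339 and 100 on Sca1- replicates 3, 2 and 1. It was the only readable gene besides Mest that was brighter on the unsorted than on the feeder array.

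Grb10, an adaptor that restrains signalling from the insulin and IGF1 receptors, had 6305 on the feeder array, 3144 on the unsorted array, 3359 and 264 on Sca1+ replicates 2 and 1, and 1506, 1502 and 505 on Sca1- replicates 2, 3 and 1. Its level on Sca1+ replicate 2 was above that on the unsorted array, so the sorted cells did not all lie below the unsorted ones.

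Plagl1 and Peg3, both zinc finger proteins of the nucleus, followed the same order of arrays. Plagl1, a regulator of other imprinted genes in mouse, had 3713 on the feeder array, 3248 on the unsorted array, 1814 and 110 on Sca1+ replicates 2 and 1, and 767, 650 and 288 on Sca1- replicates 3, 2 and 1. Peg3 had 1978 on the feeder array, 1554 on the unsorted array, 1552 and 71.4 on Sca1+ replicates 2 and 1, and 431, 429 and 131 on Sca1- replicates 3, 2 and 1. For Peg3 the unsorted array and Sca1+ replicate 2 were level.

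Mest, which encodes a protein of the alpha/beta hydrolase fold, and Cdkn1c, an inhibitor of cyclin-dependent kinases that holds cells out of the cycle, were dim. Mest had 249 on the feeder array, 389 on the unsorted array, 462 and 70.4 on Sca1+ replicates 2 and 1, and 102, 130 and 111 on Sca1- replicates 3, 2 and 1. It stood out on Sca1+ replicate 2 only among the sorted arrays. Cdkn1c had 309 on the feeder array, 258 on the unsorted array, 71.4 and 15.2 on Sca1+ replicates 2 and 1, and 38.6, 58.8 and 6.60 on Sca1- replicates 3, 2 and 1. All 5 sorted values of Cdkn1c were below the background mark of their array, so its sorted level is known only as a bound and it entered no test.

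**Figure D1:**
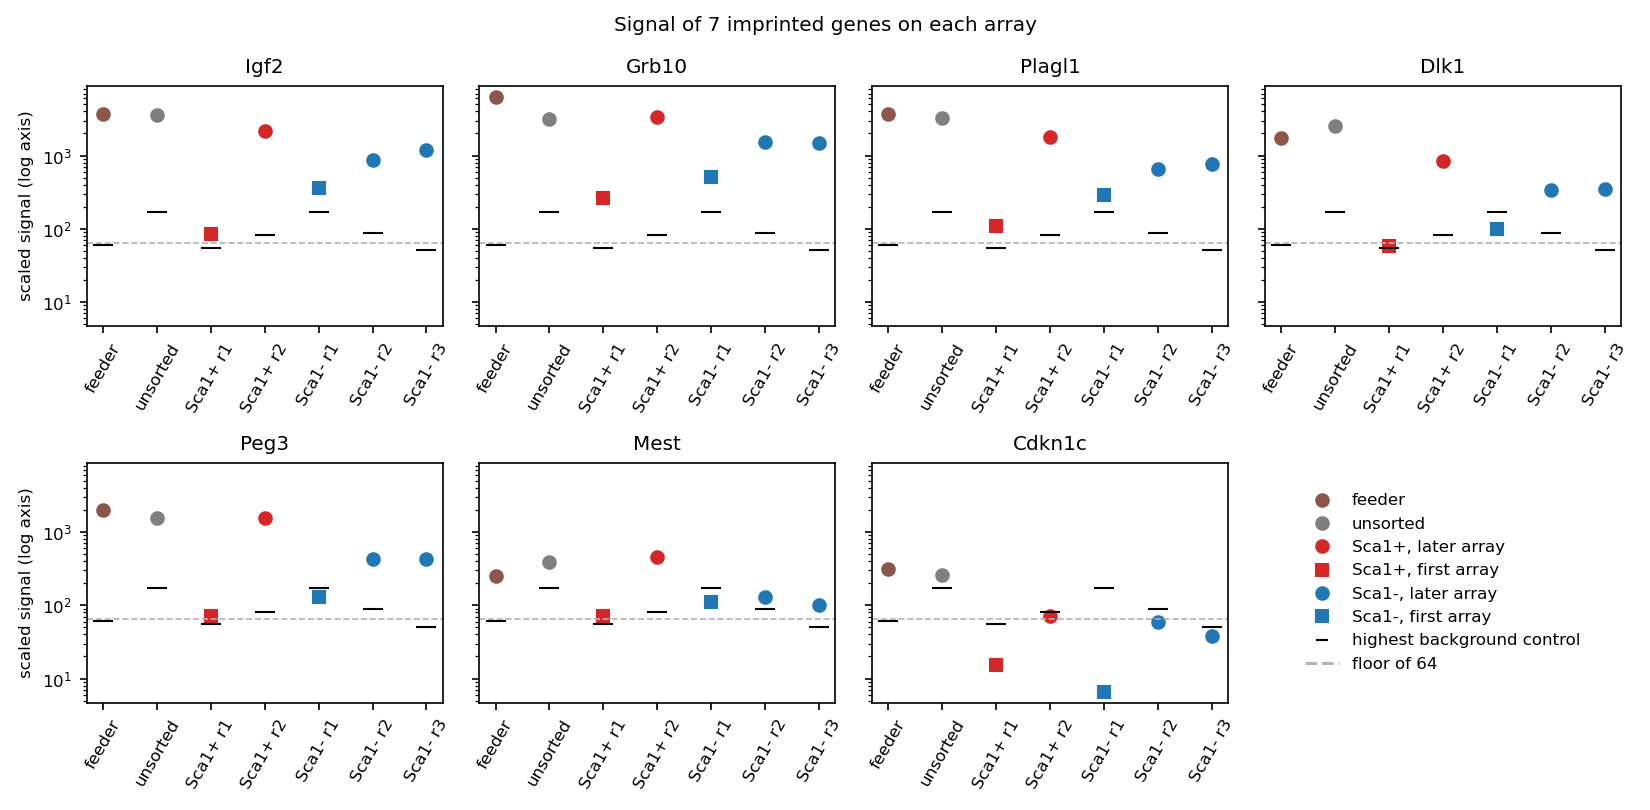
Scaled signal (log axis) of 7 imprinted genes on the feeder, unsorted, Sca1+ and Sca1- arrays, 1 point per array, with circles for later, squares for first sorted arrays, black dashes at the brightest background control of each array and a dashed line at the floor of 64. Igf2, Grb10, Plagl1, Dlk1 and Peg3 are lowest on Sca1+ replicate 1, where Grb10 still has 264, and Cdkn1c lies under the dashes on all 5 sorted arrays.

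Between the sorted fractions no gene of the set differed beyond the spread between arrays. The group means on the log2 scale were 8.75 ± 3.32 in Sca1+ and 9.49 ± 0.88 in Sca1- for Igf2 (SD, n = 2 and 3 here and below). Dlk1 had 7.87 ± 2.64 in Sca1+ and 7.84 ± 1.03 in Sca1-, Peg3 had 8.38 ± 3.14 in Sca1+ and 8.18 ± 0.99 in Sca1-, and Mest had 7.49 ± 1.92 in Sca1+ and 6.83 ± 0.18 in Sca1-. The means were 8.80 ± 2.86 in Sca1+ and 9.03 ± 0.76 in Sca1- for Plagl1, and 9.88 ± 2.60 in Sca1+ and 10.03 ± 0.91 in Sca1- for Grb10. The SD of the Sca1+ pair was above that of the Sca1- arrays for all 6 genes tested.

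The Sca1+ minus Sca1- differences in log2 signal, with their standard errors from limma, were -0.74 ± 1.28 for Igf2, 0.03 ± 1.11 for Dlk1, 0.20 ± 1.25 for Peg3, 0.67 ± 0.78 for Mest, -0.23 ± 1.12 for Plagl1 and -0.15 ± 1.06 for Grb10. Each had a limma adjusted p of 0.9995 over the 8591 genes tested. Of the 6 genes, 0 passed at 0.05, against 0.0% of all genes (292 genes had an unadjusted p under 0.05, and the smallest adjusted p was 0.710). In 0 of the 6 did both Sca1+ arrays lie above or both below every Sca1- array, against 12.1% of all genes above and 8.56% below. With later or first array as a block, 85 genes were called, 0.989% of those tested, and 0 of the 6, with adjusted p between 0.517 and 0.901. A p above the threshold with 2 arrays against 3 does not show that the fractions were alike.

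The fractions were also compared within each of the 2 sets of arrays. Among the later arrays, the Sca1+ minus Sca1- difference was 1.11 for Igf2, 1.16 for Grb10, 1.36 for Plagl1, 1.30 for Dlk1, 1.85 for Peg3 and 2.01 for Mest. Among the first arrays it was -2.10 for Igf2, -0.94 for Grb10, -1.39 for Plagl1, -0.65 for Dlk1, -0.88 for Peg3 and -0.66 for Mest, each from 1 array a fraction. All 6 values were above 0 among the later arrays and below 0 among the first. For Dlk1, Peg3 and Mest the first-array values have no firm size or direction, because the signal on Sca1- replicate 1 was under the background mark of 170 there, and Dlk1 on Sca1+ replicate 1 was under the floor. Igf2, Grb10 and Plagl1 were above the mark on both first arrays. A test of the difference between the sets, added after the data were seen, rests on the single residual degree of freedom between Sca1- replicates 2 and 3. It gave 3.21 ± 0.41 for Igf2, with limma adjusted p of 0.101, and between 1.95 and 2.76 for the other 5, with adjusted p between 0.101 and 0.106. By limma 0 of the 8591 genes passed that test, while 2698 had an unadjusted p under 0.05.

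**Figure D2:**
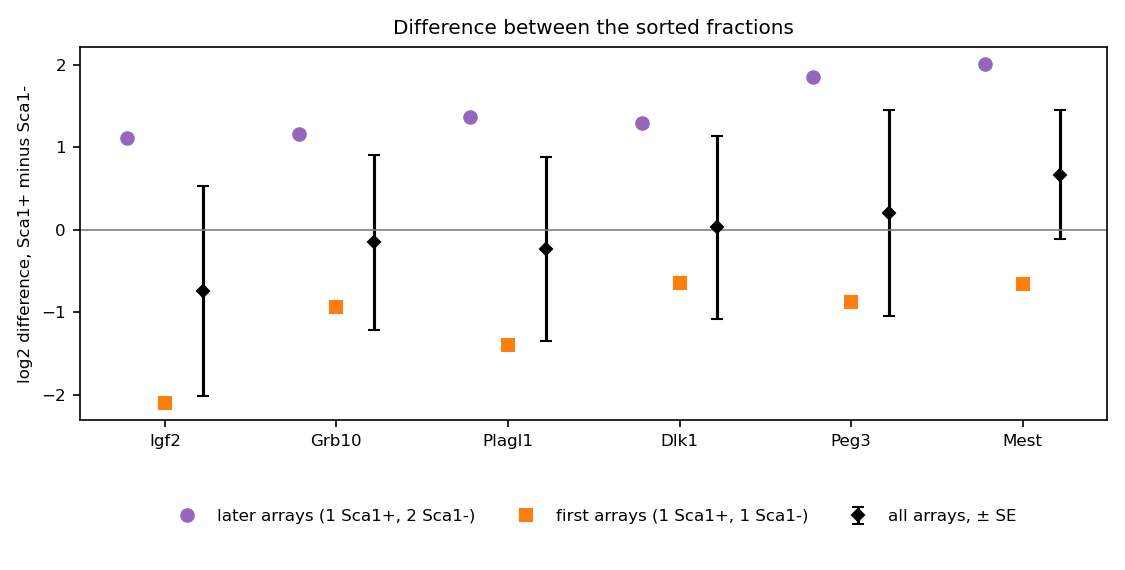
Difference in log2 signal, Sca1+ minus Sca1-, for 6 imprinted genes: circles for the later arrays (1 Sca1+ against the mean of 2 Sca1-), squares for the first arrays (1 against 1) and diamonds with ± SE bars for the fit to all arrays. Circles lie between 1.11 and 2.01, squares between -2.10 and -0.65, and every diamond is within 1 SE of 0.

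Between later and first sorted arrays, with the fraction held in the fit, 5 of the 6 genes tested were higher on the later arrays. Igf2 had 2181 on the later Sca1+ array and 869 and 1176 on the later Sca1- arrays, against 84.6 and 362 on the first Sca1+ and Sca1- arrays, a log2 difference of 2.85 ± 0.69 (SE) or 7.23-fold, with limma adjusted p of 0.0361. Dlk1, with 850, 339 and 352 on the later arrays against 59.0 and 100 on the first, differed by 2.62 ± 0.49 or 6.15-fold, adjusted p by limma 0.0178. For both ligands the lowest later array was above the highest first array. The first Sca1+ value of Dlk1 lay under the floor of 64 and its first Sca1- value under the background mark of that array, so its fold depends on the floor: with the floor doubled the difference was 1.99 (limma adjusted p 0.0692).

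The adaptor and the nuclear factors differed by like amounts. Grb10 was higher on the later arrays by 2.47 ± 0.47 (5.55-fold, limma adjusted p 0.0191), Plagl1 by 2.47 ± 0.60 (5.55-fold, adjusted p 0.0370) and Peg3 by 2.88 ± 0.61 (7.37-fold, adjusted p 0.0253). The first Sca1- value of Peg3, 131, was under the mark of 170 on that array, so the size of its fold is uncertain, and the same holds for Mest (111). In these genes too, all 3 later arrays were above both first arrays. Mest differed by 1.19 ± 0.63 (2.29-fold) with a limma adjusted p of 0.224, and its later and first arrays overlapped, since Sca1- replicate 3 (102) was below Sca1- replicate 1 (111). Cdkn1c was not tested.

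The 5 of 6 are to be read against 11.7% of all 8591 genes called higher on the later arrays and 7.53% called lower, and against 26.5% of all genes with every later array above both first arrays. The median difference was 0.10 over all genes tested. Plagl1 and Grb10 exceeded 100 on all 5 sorted arrays. Igf2, Dlk1, Peg3 and Mest exceeded it on 4, not on Sca1+ replicate 1, so they met the filter through the arrays on which they were bright, and the count is given as a description. Relative to other scalings the direction was the same: by quantile normalization 4 of the 6 were called, with Plagl1 at an adjusted p of 0.0530 by limma, while all genes split into 886 higher and 918 lower. By median scaling 5 were called and all genes split into 539 higher and 753 lower, against 1002 higher and 647 lower here.

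Size and call both depended on single arrays and on the floor. Without Sca1- replicate 1 the fit sets 1 later Sca1+ array against 1 first Sca1+ array, and the differences of the 5 genes lay between 3.67 and 4.69, with Mest at 2.72. Without either Sca1+ array the other carries no information on the difference, so both fits give the same value, Sca1- replicates 2 and 3 against Sca1- replicate 1 alone. The 5 genes then lay between 1.29 and 1.79 and Mest was at 0.05. The spread in these fits comes from Sca1- replicates 2 and 3 with 1 residual degree of freedom, and the lone arrays are assumed to vary like them, so their p-values are no check of the calls. With the floor doubled, or with no filter on low signals, 0 of the 6 were called.

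**Figure D3:**
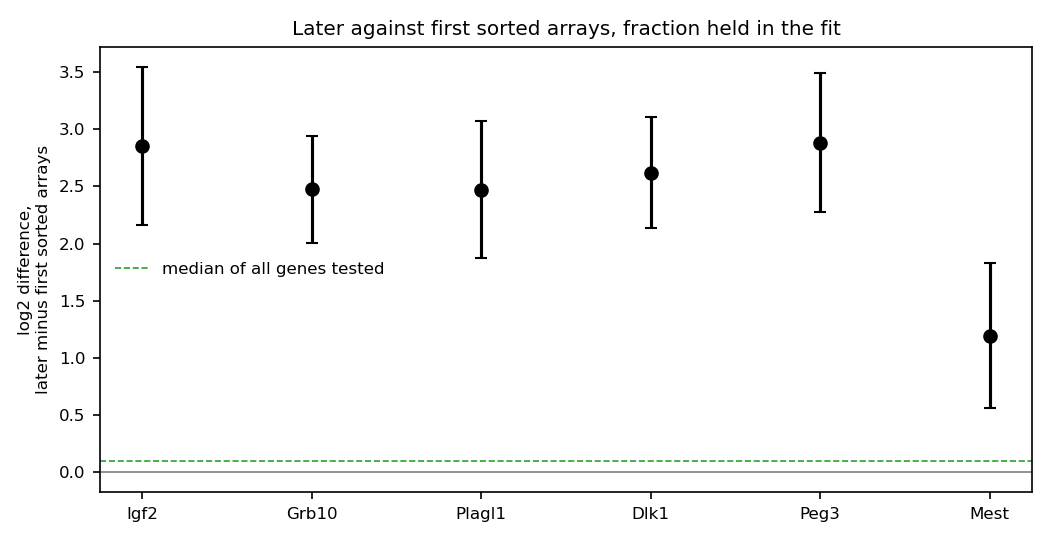
Difference in log2 signal between later and first sorted arrays, with the fraction in the fit, for 6 imprinted genes (points, ± SE bars) and the median of all genes tested (dashed line, 0.10). The 5 genes from Igf2 to Peg3 lie between 2.47 and 2.88, and Mest lies at 1.19.

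Other values moved with this difference. The Actb ratio given above was higher on both first arrays. The whole mesenchymal list stood the same way, with 16 of its 20 tested genes called higher on the later arrays, 0 called lower and a median difference of 3.12. Over all genes 11.7% were called higher and 7.53% lower. Of those called, Col1a1, Lum, Pdgfra, Pdgfrb, Postn, Lox and Cdh11 were under 100 on both first arrays. They met the filter through the later arrays, so the count is given as a description. The summed signal of the list was 122578, 48440 and 46310 on Sca1+ replicate 2 and Sca1- replicates 2 and 3, against 11535 and 7027 on the first arrays. Col1a1, a fibrillar collagen chain, had 20565, 8319 and 8775 on these later arrays, against 79.4 and 32.6 on the first. Granulocyte genes stood the other way, 8 of 12 called lower and 0 higher, against the same shares of all genes. By fraction their median Sca1+ minus Sca1- difference was -3.34, against 0.07 over all genes, with 0 of 12 called. Their summed signals on the later Sca1- replicates 2 and 3, 227329 and 201449, were above the 145520 of the first Sca1+ array. The part of transcript truncation, of mesenchymal cells and of granulocytes in the result was not tested. In bulk samples, fewer cells of a type and less RNA per cell cannot be told apart.

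Hepatoblast genes, the cells for which Dlk1 is a marker, were near the floor. Of 23 listed, 19 were measured, and 9, 4 and 4 exceeded 100 on the later arrays (Sca1+ replicate 2, Sca1- replicates 2 and 3), against 2 and 6 on the first arrays. Counted above the background mark of each array, the numbers were 9, 4 and 7 on the later arrays, against 6 and 2 on the first. The albumin gene Alb had 317, 29.8 and 40.8 on the later arrays, against 97.0 and 174 on the first, a difference of -0.09 ± 0.72 with limma adjusted p of 0.940. Afp, the fetal counterpart of albumin, had 502, 215 and 239 on the later arrays, against 68.0 and 74.2 on the first, and was called higher (2.16 ± 0.41, limma adjusted p 0.0191). In the list 3 of 6 tested genes were called higher and 0 lower, against the 11.7% and 7.53% above. Those called were all under 100 on both first arrays. They met the filter through the later arrays, so the count is given as a description.

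**Figure D4:**
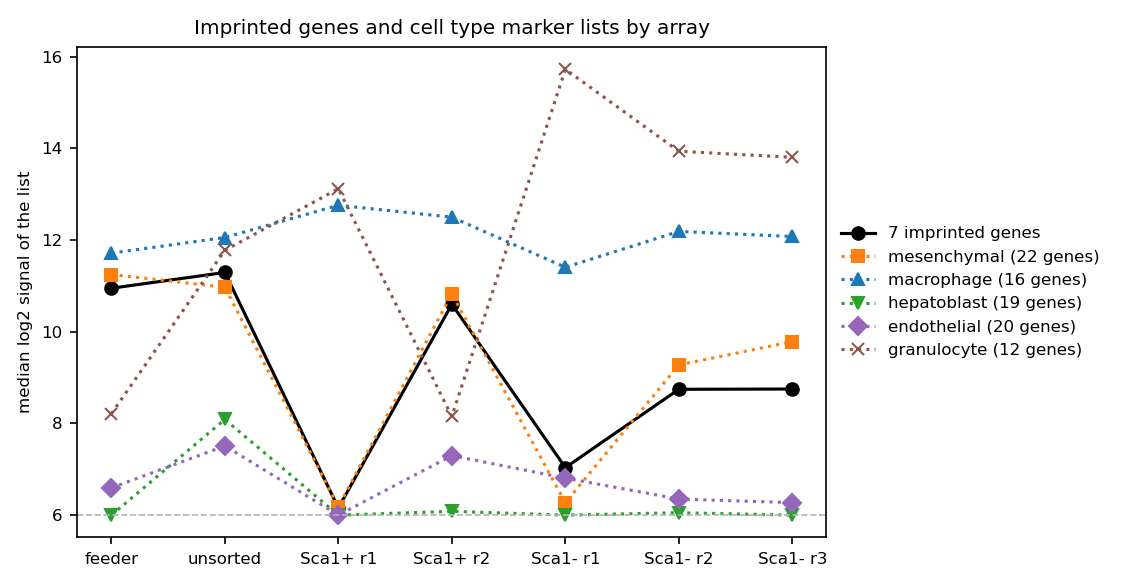
Median log2 signal per array of 7 imprinted genes (solid line) and of the measured genes of 5 marker lists (dotted lines); lines join the points of a list and imply no order of the arrays, and the dashed line is the floor of 6. The imprinted genes have medians of 10.60 on Sca1+ replicate 2 and 6.16 on Sca1+ replicate 1, and the mesenchymal genes have 10.83 and 6.18 there.

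The unsorted progenitors were set against the sorted fractions as a description, because only 1 unsorted array exists. All 7 readable genes had at least 2-fold more signal in the unsorted cells than in the fraction average, the mean of the Sca1+ and Sca1- means, against 21.6% of all genes so much higher and 6.83% so much lower. The difference in log2 signal was 3.44 for Dlk1 (10.9-fold), 2.75 for Plagl1 (6.72-fold), 2.67 for Igf2 (6.35-fold), 2.32 for Peg3 (5.01-fold), 1.66 for Grb10 (3.17-fold) and 1.44 for Mest (2.72-fold). Cdkn1c was 3.29-fold brighter at this scaling, with the sorted arrays taken at their background mark. That is no lower limit, because its log2 difference was 1.97 here, 1.41 under quantile normalization and 1.32 under median scaling. Its unsorted signal was 258, with a mark of 170 on that array. The median of the 7 was 2.32, against 0.28 over all genes.

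That contrast was not uniform over arrays. Without Sca1+ replicate 1 the differences were 0.75 for Grb10 and 0.77 for Mest, and 5 of the 7 genes stayed above 2-fold, whereas without Sca1+ replicate 2 all 7 did, with Dlk1 at 4.38. The median of all genes was -0.09 under quantile normalization and -0.38 under median scaling. Under these 2 scalings 6 and 5 of the 7 reached 2-fold, and all 7 differences stayed above 0. All genes at least 2-fold higher and lower numbered 1001 and 1189 under quantile normalization and 504 and 2357 under median scaling, against 2265 and 718 here, so the balance over all genes turned with the scaling. Hepatoblast genes above 100 numbered 16 of 19 on the unsorted array and between 2 and 9 on the sorted arrays, and mesenchymal genes 21 of 22 on the unsorted array and 10 to 20 on the sorted ones. The background mark of the unsorted array was 170. Above the mark of each array, hepatoblast genes numbered 13 on the unsorted array and between 2 and 9 on the sorted arrays. Of all genes, 9413 exceeded 100 on the unsorted array, against 7576 to 8222 on the sorted arrays. The Actb ratio was 1.01 on the unsorted array and between 1.87 and 13.5 on the sorted arrays. The part of these values in the result was not tested.

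The feeder array lies in a table deposited apart from the other 6 and under another array platform. Its comparisons are thus between separately made tables and had no test. In them a difference of cells and a difference of platform cannot be told apart. Against the unsorted array, Grb10 was 2.01-fold brighter on the feeder array (1.004 in log2), and the other 6 were within 2-fold, from -0.64 for Mest and -0.54 for Dlk1 to 0.05 for Igf2, 0.19 for Plagl1, 0.26 for Cdkn1c and 0.35 for Peg3. Of all genes, 4.08% were higher there by 2-fold or more and 15.9% lower by 2-fold or more, with a median of -0.13, which was -0.03 under quantile normalization and 0.29 under median scaling. All genes at least 2-fold higher and lower numbered 659 and 764 under quantile normalization and 847 and 577 under median scaling, against 398 and 1548 here. The Igf2 difference changed sign under quantile normalization (-0.15). With probe sets averaged Igf2 (-0.42), Peg3 (-0.12) and Plagl1 (-0.09) all turned below 0, so these 3 have no settled direction. Grb10 stood at 1.36 under median scaling, and its probe sets taken singly differed by 1.004, 0.89 and -0.26.

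Against the mean of the 2 sorted fractions, 6 of the 7 genes were at least 2-fold brighter on the feeder array, against 12.1% of all genes so much higher and 7.1% so much lower. The log2 differences were 2.94 for Plagl1, 2.90 for Dlk1, 2.72 for Igf2, and 2.67 each for Peg3 and Grb10. Mest was at 0.80, and Cdkn1c was 3.95-fold brighter at this scaling, with the sorted arrays taken at their background mark. The median of all genes was 0.01 (-0.16 under quantile normalization and -0.27 under median scaling), and the 6 stayed above 2-fold under both. All genes at least 2-fold higher and lower numbered 850 and 919 under quantile normalization and 672 and 1357 under median scaling, against 1204 and 706 here. Without Sca1+ replicate 1 the differences were 1.93 for Plagl1, 1.97 for Dlk1, 1.54 for Igf2, 1.56 for Peg3, 1.75 for Grb10 and 0.12 for Mest. Without Sca1+ replicate 2 they were between 3.59 and 3.95 for the first 5 and 1.48 for Mest. Feeder cells were bright for mesenchymal genes, with 21 of 22 above 100 and a summed signal of 107827, and 7 of 19 hepatoblast genes exceeded 100 there. The Actb ratio was 1.03 on it. The part of these values in the result was not tested.

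Probe sets of a gene did not all show these patterns. Igf2 had a second probe set (1415931_at) that stayed at or under 125 on all 7 arrays, and its later minus first difference of means was -0.14, against 2.90 for the brighter one (1448152_at). Of the 3 Peg3 probe sets, 1433924_at and 1417355_at were higher on the later arrays by 2.77 and 1.56, and 1417356_at differed by 0.03. On 1417355_at Peg3 had 1285 on the feeder array, 1526 on the unsorted array, 364 and 71.2 on Sca1+ replicates 2 and 1, and 141, 153 and 5.60 on Sca1- replicates 3, 2 and 1. Both 1417355_at and 1417356_at thus ordered the feeder and unsorted arrays the other way from the brightest, with feeder minus unsorted of -0.25 and -0.46. On 1417356_at, Sca1+ replicate 1 (17.6) and Sca1- replicates 2 and 3 (13.2 and 11.2) were under the floor. Its difference of 0.03 between later and first arrays therefore has no firm size.

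For Grb10 the brightest probe set (1425458_a_at) differed by 2.43 between later and first arrays, while 1425457_a_at and 1430164_a_at differed by 0.34 and 0.64 with every sorted value but 1 under 140. The feeder was brighter than the unsorted array on 1425458_a_at and 1425457_a_at, by 1.004 and 0.89, and dimmer on 1430164_a_at, by -0.26. Plagl1 was read from a probe set whose name ends in _x_at, the suffix for probes that may bind other transcripts, and Dlk1 from one ending in _s_at. The other Plagl1 probe set was at most 83.4 on every array. When probe sets were averaged for each gene, only Dlk1, which has 1 probe set, was called between later and first arrays.

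**Figure D5:**
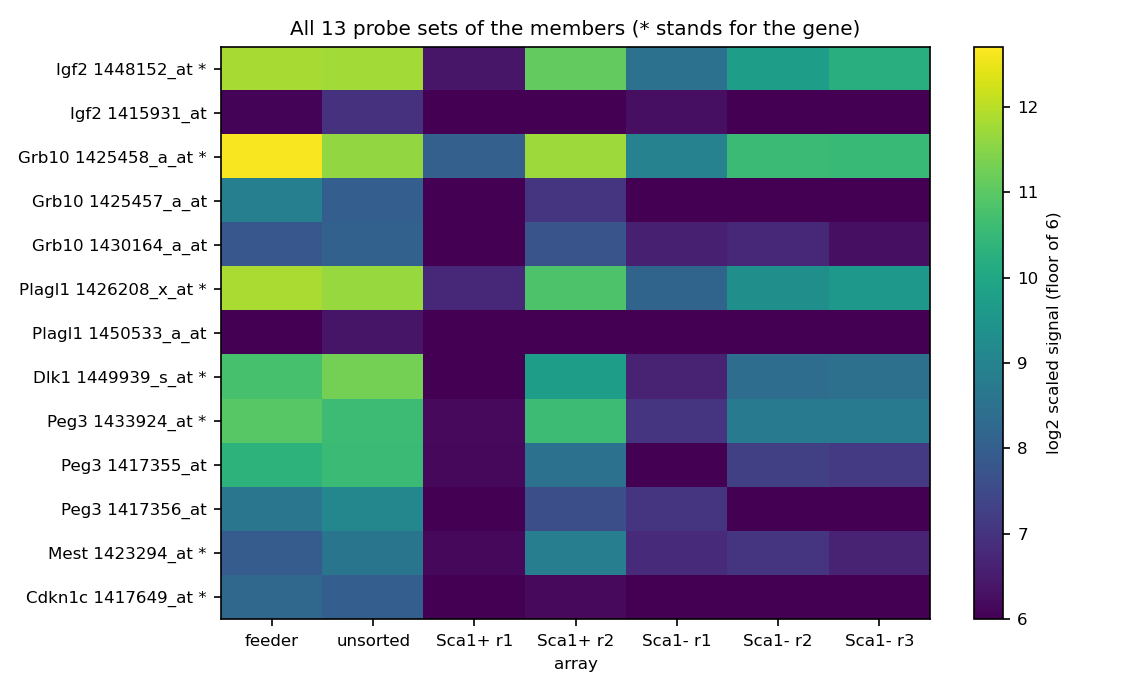
Log2 scaled signal (colour, floor of 6) of all 13 probe sets of the 7 readable genes (rows, the star marks the one that stands for the gene) on the 7 arrays (columns). Rows of one gene differ, as for Igf2, where 1448152_at has 3651 and 1415931_at has 67.6 on the feeder array.

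Most of the genes shared their order of arrays closely. Over the 7 arrays, the Pearson correlation of log2 signal among Igf2, Dlk1, Peg3, Plagl1 and Grb10 lay between 0.95 and 0.99, that of Mest with these 5 between 0.82 and 0.89, and that of Cdkn1c with the other 6 between 0.58 and 0.80. The 7 arrays share the split into later, first and unsorted or feeder arrays, so these values describe that split. Among 5550 genes with a signal above 500 on any array, the closest to Igf2 were Creb3l2 (0.997), Tmem98 (0.988) and Vps72 (0.988), and the closest to Dlk1 were Rhoj (0.989), Fbln1 (0.988) and Hdac7 (0.987). Peg3 was closest to Igfbp7 (0.996), the gelatinase gene Mmp2 (0.996) and the basement membrane collagen gene Col4a2 (0.995). Grb10 was closest to Col4a2 (0.997), Nckap1 (0.997) and Ttc28 (0.996), and Plagl1 to P3h4 (0.995), Mrps34 (0.991) and Tmcc3 (0.989). Mest was closest to Elf2 (0.982), Cygb (0.980) and Nts (0.961). The correlation takes no account of the size of a change: Elf2 ran only from 579 to 742.5 over the 7 arrays, and Mrps34 from 575 to 828. For Cdkn1c, under background on all 5 sorted arrays, the closest were Pja2 (0.995), Mrps23 (0.981) and Pcyt1a (0.976), an order that reflects only the contrast of the feeder and unsorted arrays with the sorted ones.

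The list of other imprinted genes held 56 names, of which 45 were measured and 25 tested. Between the fractions 0 were called, with a median of -0.11, against 0.07 over all genes. Between later and first arrays 6 were called higher and 1 lower, against 11.7% and 7.53% of all genes, with a median of 0.43 in the list. Dcn, the gene of the matrix proteoglycan decorin, had 3156, 922 and 766 on Sca1+ replicate 2 and Sca1- replicates 2 and 3, against 82.8 and 87.3 on the first arrays, a difference of 4.12 ± 0.47 with limma adjusted p of 0.00507. The maternally expressed non-coding RNAs of the Dlk1 region stood the same way. Meg3 had 5103, 3255 and 3751 on these later arrays, against 243 and 787 on the first (3.11 ± 0.49, limma adjusted p 0.0118). Rian had 288, 205 and 238 on the later arrays, against 32.6 and 16.6 on the first (1.95 ± 0.35, adjusted p 0.0166 by limma), both first values being under the floor. Dcn and Rian thus met the filter through the later arrays alone.

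The remaining calls in that list were Commd1 (1.84 ± 0.43), Igf2r, the receptor that clears IGF2 from the cell surface (1.79 ± 0.31, limma adjusted p 0.0152), and the ubiquitin ligase gene Ube3a (1.33 ± 0.28), all higher on the later arrays. Copg2, the neighbour of Mest that runs on the opposite strand, was the 1 called lower, with 255, 277 and 311 on the later arrays, against 584 and 754 on the first (-1.29 ± 0.27, limma adjusted p 0.0241). Cdh15 at -1.11 and Gnas at -0.86 were next lowest and did not pass. Gnas, which encodes the stimulatory G protein alpha subunit, had 7450 on the feeder array, 6530 on the unsorted array, and between 4105 and 15513 on the sorted arrays. Cd81 (1591 to 3775) and H13 (1107 to 1841) stayed within narrow ranges over the 7 arrays. The differences between fractions, Sca1+ minus Sca1-, ran from -1.17 for Mcts2, -0.93 for Meg3 and -0.92 for Commd1 to 0.46 for Cd81, 0.76 for Gatm and 0.94 for Impact.

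Of 16 genes of the IGF axis, ligands, receptors, substrates and binding proteins around Igf2, 15 were measured and 9 tested. Between later and first arrays 3 were called higher and 0 lower, with a median of 0.96: Igf1, Igf2r and Igfbp7. Over all genes 11.7% were called higher and 7.53% lower, with a median of 0.10. Igf1, the other IGF ligand, had 6535 on the feeder array, 6239 on the unsorted array, 5731 and 2703 on Sca1+ replicates 2 and 1, and 3583, 3329 and 1541 on Sca1- replicates 3, 2 and 1. It was higher on the later arrays by 1.13 ± 0.21 (limma adjusted p 0.0172). Igfbp7, a secreted IGF-binding-related protein, differed by 3.601 ± 0.54 (limma adjusted p 0.0101). Igf1r, the signalling receptor of both ligands, had 327 on the feeder array, 313 on the unsorted array, 284 and 98.0 on Sca1+ replicates 2 and 1, and 533, 396 and 318 on Sca1- replicates 3, 2 and 1, and did not pass between later and first arrays (0.96 ± 0.36, limma adjusted p 0.110). Both Sca1+ values of Igf1r were below all 3 Sca1- values, which held for 8.56% of all genes tested. The Sca1+ minus Sca1- difference of Igf1r was -1.28 ± 0.57, with a limma adjusted p of 0.9995. Of the 9 genes 0 were called between the fractions.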

How the data were processed

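The authors deposited 1 signal intensity per probe set and array, on a linear scale, in 2 tables (6 arrays, and the feeder array alone). Each table stands under its own array platform. GCOS is named for the 3 later arrays per the submitters' processing notes; for the other 4 no software is named in the sources used here. The trimmed mean (2% off each end) of every deposited array was near 250, and 0 pairs of arrays held identical values.

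Of 22690 probe sets, 64 were controls, 20380 had 1 gene in the platform annotation, 691 several and 1555 none. Only those with 1 gene were used. Arrays were rescaled to a trimmed mean of 500, floored at 64 and log2 transformed. A gene was represented by its probe set with the highest mean over the larger table's 6 arrays (log2 scale). The 8591 genes whose signal passed 100 on 2 or more of the 5 sorted arrays entered the tests.

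limma 3.58.1 in R 4.3.3 (lmFit, eBayes with an intensity trend, Benjamini-Hochberg at 0.05) compared Sca1+ with Sca1- on 6 arrays with group alone, and later with first sorted arrays on 5 arrays with fraction as a term (2 residual degrees of freedom). Single-array comparisons are differences without a test. The fits were tested on simulated data. Named genes were all members, the 3 highest and 3 lowest other imprinted genes of each tested comparison with the 6 brightest, and the 3 genes most like each member. Afp, Alb, Col1a1, Pecam1, Stab1, Eng, Tie1, Erg and genes of the IGF axis were named after their values were seen. The members and lists were chosen with earlier results of these data known. The number of arrays limits the precision. Pairs of Sca1+ and Sca1- arrays share only replicate numbers, which were not taken as pairing. Alternatives were other scalings, floors, a pseudocount, filters, the mean of probe sets, no trend, blocks and leaving out each sorted array. Promoter and microRNA sequences are from RefSeq (GRCm38.p6).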

Additional observations from a re-analysis of the deposited data

How the results depend on the processing

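Between Sca1+ and Sca1-, 0 genes passed as reported, 1 did with no filter on low signals, 85 with later or first array as a block and 80 with the replicate block, and 0 of the imprinted genes passed under any of these. Directions of their differences were not stable. Leaving out each sorted array in turn gave -3.09 to 1.60 for Igf2, -1.84 to 1.89 for Dlk1, -2.02 to 2.42 for Peg3, -0.69 to 2.03 for Mest, -2.26 to 1.79 for Plagl1 and -1.99 to 1.68 for Grb10. Dlk1 was -0.030 with a floor of 16. Plagl1 was 0.18 with the array set as a block and 0.043 with the replicate block, Grb10 was 0.26 and 0.11 under the same blocks, and 0.22 with the mean of probe sets.

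Between later and first arrays, 1649 genes passed as reported, 546 with the floor doubled, 99 with no filter, 593 without the fraction term, and 688 (without Sca1- replicate 3) to 3421 (without Sca1+ replicate 2) when an array was left out. Without Sca1+ replicate 1 it was 3194. Every fit without an array rests on 1 residual degree of freedom. Those that leave a fraction with 1 set compare 1 array with 1 or 2. The counts from fits without an array thus say little of stability. Of the imprinted genes 5 passed as reported. With the doubled floor none passed (limma adjusted p between 0.0692 and 0.122 for those 5), nor with no filter (0.164 to 0.246). By limma without the intensity trend 3 passed (Dlk1, Peg3 and Grb10), and without the fraction term 2 did (Dlk1 and Grb10). The causes were not tested. All 6 differences kept their sign under every alternative that gave a value (Mest had none at a signal minimum of 300).

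At least 2-fold higher on the feeder than on the unsorted array was 1 gene, Grb10, and 0 with quantile normalization, a pseudocount of 32 or the mean of probe sets. Cdkn1c was limited by background: its difference between the unsorted array and the sorted arrays ran from 1.01 with the doubled floor to 2.95 with a floor of 16. With a single unsorted and a single feeder array, their own spread is unknown.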
